A study of Brassica oleracea var. italica with 2 samples.

Results

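The genes described here are 8 nuclear genes for subunits of the photosystems and of their antenna: PSAN and PSAE-1 of photosystem I, PSBW, PSBY and PSB27 of photosystem II, and the antenna genes LHCB4.1, LHCB4.2 and LHCB4.3. They were chosen by name, as the probe sets for which the array annotation gives exactly one of these symbols and no other gene. This gave 8 probe sets, 1 for each gene, of 22810 on the array, 13513 of which are annotated with a single gene. Expression was measured in whole seedlings of broccoli, cultivar Elegance, at an age of 11 days, after growth on plates in days of 16 h light and 8 h dark. Both samples grew at 21 °C on 0.8% agar with 1.5% sucrose. The vector sample carried the empty plasmid pCAMBIA1380 in a wild-type background. The antisense sample, in the same background, carried an antisense copy of BoEMF2.1, a broccoli relative of the Arabidopsis Polycomb gene EMF2, driven by the 35S promoter, which is active in most plant tissues. The labels do not state how many seedlings or how many transformed lines went into each sample. With 1 sample in each group, values carry no replicate error, no difference could be tested, and "lower" and "higher" describe these 2 arrays.

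Photosystem II and photosystem I are the pigment-protein complexes of the thylakoid membrane that drive electrons from water to ferredoxin in light. Each is built from subunits of both genomes: the reaction-centre proteins are encoded in the plastid, while most antenna proteins and many small or peripheral subunits are encoded in the nucleus and imported. In leaves and cotyledons these nuclear genes are among the most strongly expressed, and their transcripts respond to light and to the state of the plastid.

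Broccoli transcripts were read across species, by probe sets designed for Arabidopsis. Each of the 8 probe sets is named for an Arabidopsis gene, and how many broccoli gene copies contribute to its signal is not known from these data. Signals of different probe sets were therefore not read as relative transcript levels, and each gene was compared with itself between the arrays. A floor was set at the median signal of each array's 22746 non-control probe sets, 317.6 for the vector sample and 302.7 for the antisense sample, and all 8 genes lay above it in both samples. The signals closest to it were those of PSB27, at 2.38 times the floor with the vector and 1.94 times with the antisense construct, and those of LHCB4.2 were farthest, at 68.2 and 53.8 times.

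All 8 genes had a lower deposited signal on the antisense array (7 of 8 after median centring, where PSBW moved to 0.000702), as did 52.1% of the 9382 probe sets that exceeded the floor in both samples. The log2 ratios of antisense over vector signal ran from -0.02 for PSBW to -1.52 for PSAN. Their median was -0.45 (mean -0.54, SD over genes 0.48), beside a median of -0.02 over all 9382 probe sets. Within the range of mean signal that the 8 genes cover, 48.1% of 4951 probe sets were lower and the median was 0.02. PSAN alone was 2-fold or more lower, 1 of 8 genes against 3.51% of all probe sets and 3.76% of those in that signal range. None of the 8 was 2-fold or more higher, against 3.02% of all probe sets. At 1.5-fold the count was 3 of 8 (PSAN, PSAE-1 and PSBY), against 13.1%. The 8 genes were chosen with earlier results of these data known, and the counts describe them without a test. In whole seedlings, a smaller share of green cells and less RNA per green cell cannot be told apart.

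**Figure D1:**
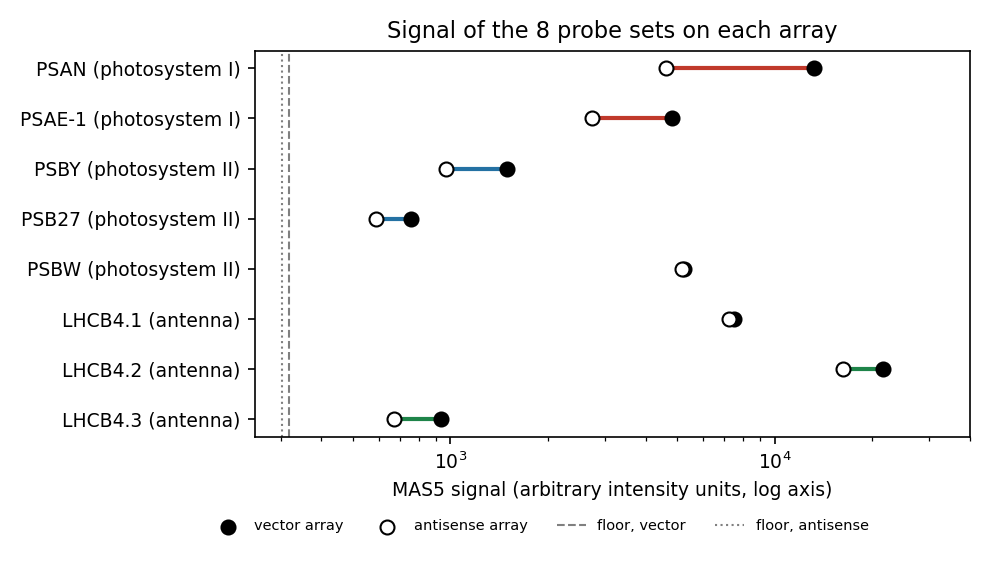
Signal of each of the 8 probe sets (rows, coloured by complex) on the vector array (filled points) and the antisense array (open points), on a log axis in MAS5 intensity units, with 1 sample per point and each array's floor as a vertical line. Every open point lies at or to the left of its filled point; the gap is widest for PSAN (13222.1 to 4622.5) and hardly visible for PSBW (5256.5 to 5173.5).

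A ratio from a single pair of arrays carries measurement noise that these data bound only in part. From 31 gene names with 2 such probe sets each, the SD of a single log2 ratio was 0.44, and that of a difference between 2 ratios was 0.62. This spread holds noise between probe sets, and possibly differences between distinct genes listed under 1 symbol. It leaves out variation between plants. Of the 8 genes, 4 were lower by more than 1 such SD (PSAN, PSAE-1, PSBY and LHCB4.3), as were 20.2% of all 9382 probe sets. By more than 2 SDs the count was 1, PSAN, against 5.17% of all probe sets.

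The photosystem I genes had the lowest ratios. PSAN encodes a peripheral subunit on the lumenal side of photosystem I that helps plastocyanin deliver electrons to the complex. Its signal was 13222.1 with the vector and 4622.5 with the antisense construct, 2.86-fold lower, or 35.0% of the vector signal. Of the 9382 probe sets, 46 had a ratio as low or lower, 25 of them among the 4972 annotated with a single gene. PSAE-1 encodes a subunit on the stromal side, where ferredoxin docks. Its signal was 4838.4 with the vector and 2738.5 with the antisense construct, 1.77-fold lower, with a log2 ratio of -0.82. A ratio that low or lower was seen for 560 probe sets. The ratios of PSAN and PSAE-1 differed by 0.70, close to the SD of 0.62 for a difference of 2 ratios.

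The photosystem II genes covered a range from no visible difference to a modest one. Their ratios spanned less than the SD of 0.62 for a difference of 2 ratios, so these arrays do not separate them from each other. PSBY, whose precursor is cut into a pair of small membrane proteins in Arabidopsis, had signals of 1496.3 with the vector and 971.3 with the antisense construct, 1.54-fold lower (log2 ratio -0.62). PSB27 encodes a lumenal protein that takes part in the assembly and repair of photosystem II. Its signals were 755.4 with the vector and 588.2 with the antisense construct, 1.28-fold lower (-0.36). PSBW encodes a small membrane subunit that stabilises the association of photosystem II with its antenna in Arabidopsis. Its signals were nearly equal, 5256.5 with the vector and 5173.5 with the antisense construct, at 98.4% of the vector level, and its ratio of -0.02 was close to the median of all probe sets. With median centring, under which it turned positive, 50% of all probe sets were lower.

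The antenna genes LHCB4.1, LHCB4.2 and LHCB4.3 encode forms of CP29, the minor light-harvesting protein that sits between the photosystem II core and the trimeric antenna. LHCB4.2 had signals of 21671.5 with the vector and 16275.6 with the antisense construct, 1.33-fold lower (log2 ratio -0.41). LHCB4.3 had signals of 937 with the vector and 668.1 with the antisense construct, or 71.3% of the vector level (-0.49). LHCB4.1 differed little, at 7503.7 with the vector and 7226.8 with the antisense construct, 96.3% of the vector level (-0.05). The 3 ratios spanned 0.43, less than the SD of 0.62 for a difference of 2 ratios, so these arrays do not separate the paralogs. Whether the probe sets of the 3 paralogs also bind each other's broccoli transcripts was not tested.

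**Figure D2:**
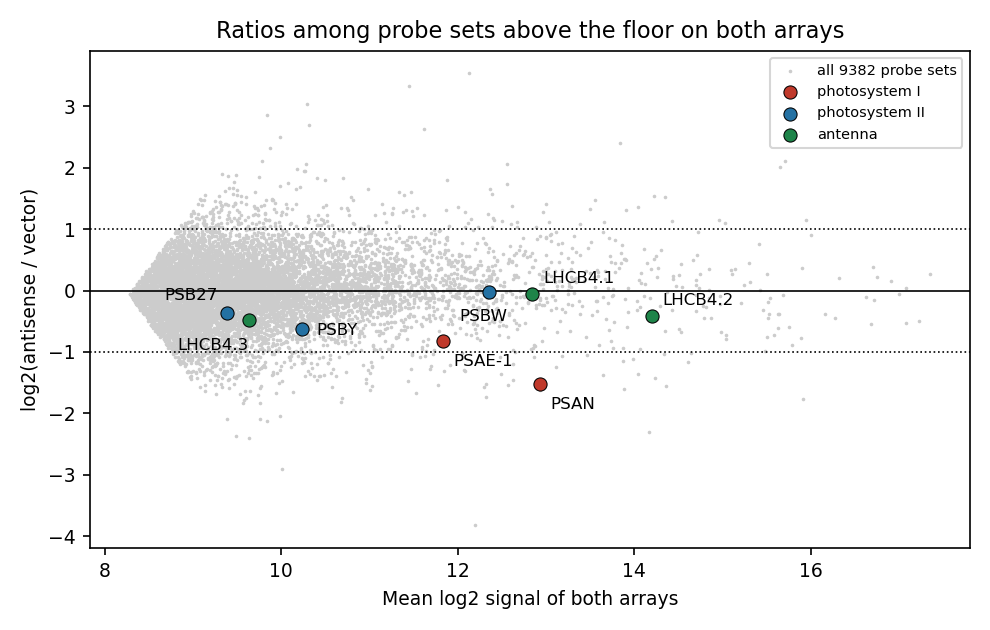
Log2 ratio of antisense over vector signal (vertical axis) against the mean log2 signal of both arrays (horizontal axis) for the 9382 probe sets that exceeded the floor in both samples (grey) and the 8 genes (coloured by complex); dotted lines mark 2-fold. PSAN lies at -1.52 near the lower edge of the cloud, PSAE-1 at -0.82 lies within the 2-fold lines, and PSBW and LHCB4.1 lie near 0.

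By complex, the 2 photosystem I genes had a median ratio of -1.17 and the 6 genes of photosystem II and its antenna one of -0.39. The ranges did not overlap: the higher of the photosystem I ratios, -0.82 for PSAE-1, was below the lowest of the others, -0.62 for PSBY. The step between PSAE-1 and PSBY is small beside the SD of 0.62 for a difference of 2 ratios, and the photosystem I side holds 2 genes. In the order of ratios from PSAN to PSBW, no gene was separated from the next by more than 0.62 except PSAN from PSAE-1.

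A wider list of nuclear genes for photosystem subunits, antenna proteins and assembly factors held 84 symbols, 13 of which had a single-gene probe set. Beside the 8 genes above these were 5 assembly factors, so that the other antenna and photosystem subunit genes of the nucleus were not analysed here. LPA1 and LPA2, which act in the assembly of photosystem II in Arabidopsis, had ratios in the range of the subunit genes. LPA1 had signals of 1039.3 with the vector and 724 with the antisense construct (log2 ratio -0.52), and LPA2 had 516.4 and 376.2 (-0.46). The other two measured factors were higher on the antisense array. PAM68, a further assembly factor of photosystem II, had signals of 739.4 and 868.4 (0.23), and HCF101, which supplies iron-sulphur clusters to photosystem I, had 601.4 and 897.6 (0.58). LPA19, which acts in the maturation of a reaction-centre protein, was below the floor on both arrays. The 4 measured factors had a median of -0.11 and 0 past 2-fold. Of them 2 were lower and 2 higher, beside 52.1% of all probe sets lower.

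The plastid-encoded partners in the same complexes gave lower ratios than most of the nuclear genes. All 22 plastid genes listed for the photosystems and their assembly were lower by their own signals, against 52.1% of all 9382 probe sets. The median log2 ratio was -0.92 for the 7 photosystem I genes and -0.95 for the 15 photosystem II genes. In photosystem I, 2 of 7 were 2-fold or more lower, against 3.51% of all probe sets. One was psaA, a core protein of the reaction centre, at -1.37 (1526.7 with the vector and 590.8 with the antisense construct). The other was the assembly factor gene ycf3 at -1.48 (4622.5 and 1656.5). The other photosystem I genes ran from -0.94 for psaI to -0.38 for psaJ. PSAE-1 lay inside this range, with 4 of the 7 plastid genes below it, and PSAN lay below all 7. Of the 20 plastid genes measured on both arrays, 3 had ratios below that of PSAN, the photosystem II genes psbL, psbF and psbH. The other 2, psbJ and psbT, have bounds and cannot be placed above or below PSAN.

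In photosystem II, 6 of 15 plastid genes were 2-fold or more lower, against 3.51% of all probe sets. They were psbL at -2.40, psbF at -1.62, psbH at -1.58, psbI at -1.32, psbD at -1.04 and psbM at -1.002. Of these, psbD encodes a protein of the reaction centre, psbF a subunit of its cytochrome, and psbL, psbH, psbI and psbM small subunits. The psbL ratio (signals of 1821.8 and 345.4) rests on an antisense signal near the floor of 302.7. It became a bound of -1.56 with a 75th percentile floor. The remaining ratios measured on both arrays ran from -0.995 for psbE to -0.26 for psbC. For psbJ and psbT, whose antisense signals were below the floor, the ratios were bounds of -0.71 and -0.20. The bound of psbT, with signals of 348.6 and 8.5, depended on the floor: it was -1.93 with a 25th percentile floor, -2.15 with a pseudocount and -5.36 with no floor, past 2-fold in each case. None of the 6 nuclear genes of photosystem II and its antenna was as low as the plastid median of -0.95, and 9 of the 15 plastid genes, psbT not counted, were below the lowest of them, PSBY. The median of the 6 nuclear genes was 0.56 higher than that of the plastid photosystem II genes. The plastid genes share transcripts and a genome and are not independent of each other, and no test of this difference was made. Whether the labelling and the arrays read plastid and nuclear transcripts alike was not tested either.

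**Figure D3:**
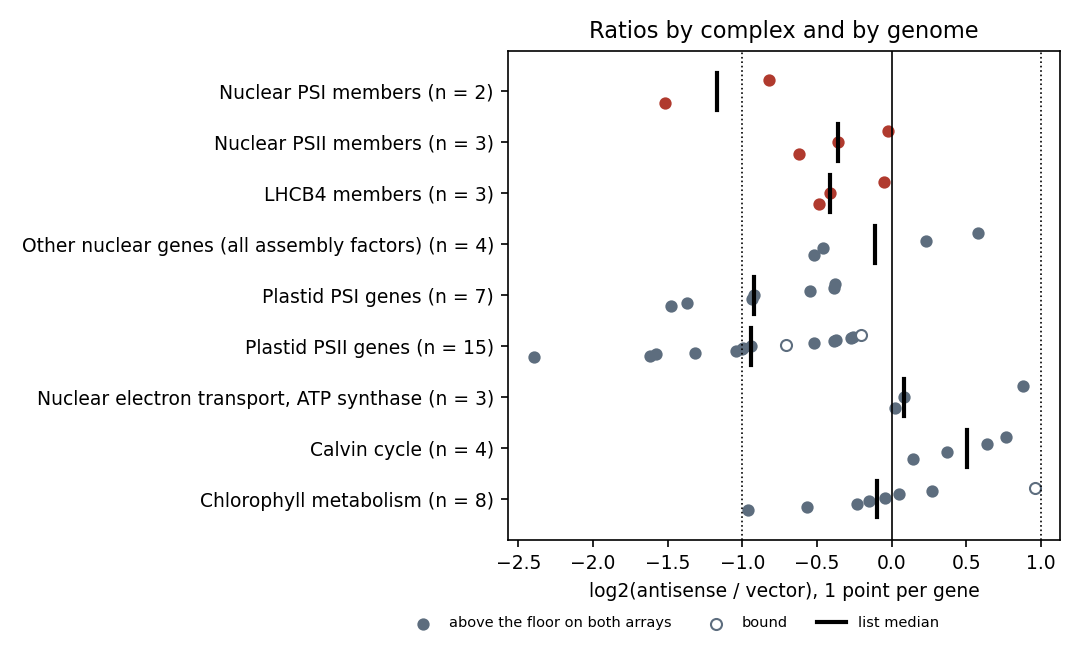
Log2 ratio of antisense over vector signal (horizontal axis), 1 point per gene, for the 8 genes by complex (red) and for other photosynthesis genes by list (grey); PSI and PSII stand for photosystem I and II, black bars are list medians, open points are bounds and dotted lines mark 2-fold. The plastid lists have medians of -0.92 and -0.95, and the nuclear photosystem II and LHCB4 genes lie between -0.62 and -0.02. All 4 genes of the Calvin cycle list lie to the right of 0 with the deposited scaling (PRK at -0.05 with scaling to the hybridization controls). They include TPI, whose compartment is not known.

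Other nuclear genes of photosynthesis went both ways: over 3 lists, 15 genes were measured, 5 of them lower and 10 higher by the deposited signals. Their median ratio was 0.08, beside 52.1% lower and a median of -0.02 over all 9382 probe sets. Scaling to the hybridization controls lowered every ratio by 0.19, which gave 9 lower and 6 higher, with a median of -0.11. Of all 9382 probe sets, 67% were then lower, with a median of -0.22. For the thylakoid electron carriers and ATP synthase, 3 of 30 listed genes had a probe set, and all 3 were higher on the antisense array by the deposited signals. PGRL1B, a protein of cyclic electron flow around photosystem I, stood at 0.08, and ATPC1 and ATPC2, which encode the gamma subunit of the chloroplast ATP synthase, stood at 0.03 and 0.88. ATPC1 turned negative with quantile and loess normalization (-0.03 for both), and scaling to the hybridization controls made both ATPC1 and PGRL1B negative (-0.17 and -0.11). ATPC1 had signals of 13693 with the vector and 13936.2 with the antisense construct.

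Of 29 symbols listed for the Calvin cycle, 4 were measured. All 4 were higher by the deposited signals, while 52.1% of all 9382 probe sets were lower. PRK was lower under scaling to the hybridization controls (-0.05). RCA, which activates Rubisco, had signals of 4151.5 with the vector and 6450.1 with the antisense construct (log2 ratio 0.64). The enzyme gene SBPASE stood at 0.37 and PRK at 0.14. TPI, the highest of the 4, stood at 0.76 (33574.9 and 57012.1). It is a triosephosphate isomerase whose compartment the annotation does not give, so it may be a cytosolic enzyme outside the cycle. The median of the 4, with TPI counted, was 0.50, with 0 past 2-fold.

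Of 31 listed genes of chlorophyll synthesis and breakdown, 8 were measured, with a median of -0.10 and 0 past 2-fold. They went both ways, 5 lower and 3 higher, beside 52.1% of all probe sets lower. PORB, a light-dependent enzyme of chlorophyll synthesis, was the lowest at -0.96 (8853.8 and 4541.1), followed by HEMA2, which encodes an enzyme of an early step, at -0.57 (564.5 and 381.2). CHLI2, a subunit of magnesium chelatase, was the highest at 0.96 (317.6 and 616.9), a bound because its vector signal was at the floor, and GSA1, another gene of an early step, stood at 0.27. The other 4 lay between -0.23 and 0.05. PORB was thus the single gene of these 3 lists with a ratio below that of PSAE-1.

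Several properties of the arrays as a whole stand beside these ratios. Scaling to the 18 hybridization controls, in place of the deposited scaling, lowered every ratio by 0.19 and took the median of all 9382 probe sets from -0.02 to -0.22. The counts of probe sets 2-fold or more higher and lower went from 283 and 329 (46.2% higher) to 154 and 585 (20.8% higher), and 67% of probe sets were then lower. PSAE-1 then reached -1.01 and joined PSAN past 2-fold, 2 of 8 genes against 6.24% of all probe sets. Plant control transcripts are read near each end, as a measure of RNA quality. The 5′ ratio exceeded the 3′ ratio in 4 of 5 pairs, with differences from -0.34 to 0.62 (median 0.44). The pairs are not independent, since actin (0.62 and 0.04) and ubiquitin (0.52 and 0.44) were each read by more than 1 pair. GAPDH went the other way (-0.34). Of 15 listed root markers, which stand for the part of the seedling without photosynthesis, 3 were measured: EXPA7 at 1.63 (374.7 and 1158.2), EXPA18 at 0.80 (1127.5 and 1959) and PYK10 at -0.44 (1333.1 and 980). The vector signal of EXPA7 was near the floor of 317.6, and with a 75th percentile floor its ratio became 0.86, short of 2-fold. The part of RNA quality and of root share in the ratios of the 8 genes was not tested. No probe set is annotated as EMF2, so the level of the targeted gene was not analysed here.

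**Figure D4:**
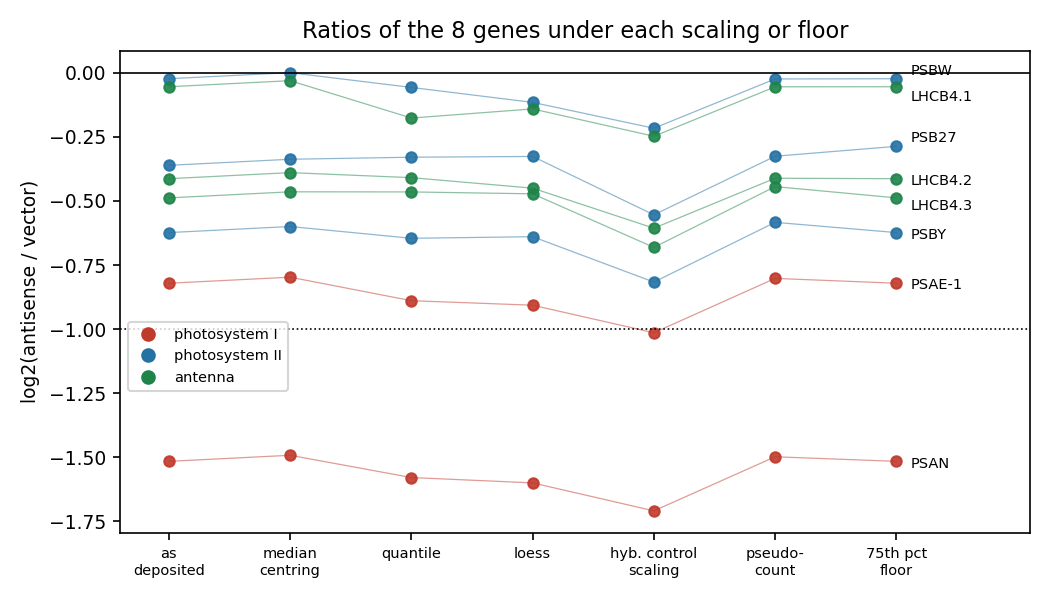
Log2 ratio of antisense over vector signal (vertical axis) of the 8 genes as deposited and under 6 other scalings or floors (horizontal axis; lines join the values of a gene and have no other meaning), with 0 and 2-fold lower marked. PSAN stays between -1.71 and -1.49, while PSBW touches 0 with median centring. PSAN, PSAE-1 and PSBY keep their order, which only quantile normalization, loess and the pseudocount could have changed.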

How the data were processed

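The authors deposited linear intensity values, 1 signal per probe set for each of 2 arrays; the submitters' processing notes name MAS5 without a version. The trimmed means, leaving out 2% at each end, were 500.035 and 500.036, so both arrays share a scale. The number of arrays limits the precision. Groups were taken from the sample titles, since the antisense genotype label names the 35S construct without the word antisense. Genes were named from the array annotation, using probe sets with 1 gene and, where a gene had several, the one with the brightest vector signal. The floor was the median of an array's non-control probe sets, and values at or below it were set to it, so that a ratio with 1 array there is a bound and one with both there was not taken. No test was possible with 1 sample per group. The members and lists were chosen with earlier results of these data known. All members are named, and in each other list the genes past 2-fold, otherwise up to 4 with the largest ratios. LPA19, the values of some smaller ratios and the comparison of PSAN and PSAE-1 with their neighbours were added after the values were seen. Alternatives were other scalings, floors, pseudocounts, thresholds, probe-set choices and backgrounds. The calculation was tested on simulated data, with a shift larger than any ratio of the 8 genes and less noise than estimated here. That run checks the calculation and does not show how well small differences are found. Tables were handled in Python 3.11.15 with pandas 2.3.3 and numpy 2.4.6, loess came from statsmodels 0.14.6, trimmed means from scipy 1.17.1 and figures from matplotlib 3.10.9. Sequences and coordinates were not used here.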

Additional observations from a re-analysis of the deposited data

How the results depend on the processing

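No paired analysis was possible because there is 1 sample in either group, which also leaves no replicate to drop. Of 80 recomputed ratios of the 8 genes, 79 kept their sign within the SD of 0.44, the exception being PSBW with median centring (0.000702). Many of the 80 could not change. Each gene had 1 probe set, above the floor on both arrays, so the 25th percentile floor, no floor and the probe-set choices left every ratio as it was. The 75th percentile floor changed PSB27 alone (-0.29). The count of 1 gene 2-fold or more lower (3.51% of all probe sets) became 2 with hybridization-control scaling (6.24%), 3 at 1.5-fold (13.1%) and 0 at 3-fold (0.32%). Leaving out PSAN, the 1 gene counted, gave 0 by construction and left a median of -0.41. Probe sets 2-fold lower and higher, 329 and 283, became 585 and 154 with hybridization-control scaling, 1352 and 1149 with a 25th percentile floor, 111 and 114 with a 75th percentile one, 3691 and 3241 with no floor, 1879 and 1463 with a pseudocount, 1229 and 1085 at 1.5-fold, and 30 and 40 at 3-fold. With hybridization-control scaling the median of the electron transport list turned to -0.11, PGRL1B to -0.11, ATPC1 to -0.17, PRK to -0.0490 and HEMB1 to -0.14, and ATPC1 was also negative with quantile and loess normalization (-0.0315 and -0.0277). For psbT, below the floor on the antisense array, the bound of -0.20 became -1.93 with a 25th percentile floor, -2.15 with a pseudocount and -5.36 with no floor. With a 75th percentile floor, psbL moved from -2.40 to a bound of -1.56, and the root marker EXPA7 from 1.63 to a bound of 0.86.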
